A study of Mus musculus with 8 samples.

Results

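The 10 genes described here encode the histone variant H2A.Z and proteins that place it in chromatin or take it out: H2afz, H2afv, Anp32e, Srcap, Vps72, Znhit1, Yeats4, Ep400, Ruvbl1 and Ruvbl2. They were chosen by name, with earlier results of these data known. Each gene was given the CAGE tag clusters on its own strand whose dominant transcription start site (TSS, the most used base of the cluster) lay between 500 bp upstream of the annotated gene start and the gene end (GENCODE vM21, mm10). This gave 39 of the 32857 clusters of wild-type cells, 39 of 33005 in the first knockout clone and 40 of 32870 in the second. All 10 genes had at least 1 cluster in every line. A same-strand cluster was found for 11457 of 21951 annotated protein-coding genes in wild-type cells.

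CAGE-seq captures the cap of RNA polymerase II transcripts, so that the first sequenced base is read as the place where transcription began. Whether each cluster is a site of initiation was not tested. It was performed on nuclear RNA from wild-type E14 mouse embryonic stem cells (mESCs) and from 2 Pwwp2a/b double knockout (DKO) mESC lines, A1 and C7, each a single clone of E14 cells. All were grown with serum and LIF on gelatine-coated dishes. There were 3 libraries of E14, 2 of A1 and 3 of C7, and the replicates had been merged within each line before the clusters were called. Each line is therefore 1 set of positions that carries no expression level, no read count and no spread between replicates, and no test between lines could be made. A cluster that is absent from a line may be transcribed below what the caller kept. Promoter clusters were found for 10 of 10 markers of embryonic stem cells in each line, and for 4 of 14 markers of other cells (Sox17, Col1a1, Col1a2 and Thy1) in each line. The share over all annotated coding genes was 50.9, 50.9 and 50.8% in E14, A1 and C7. The part of other cells in the results was not tested. Pwwp2a had 1 promoter and 1 intronic cluster in all 3 lines and Pwwp2b had no cluster in any, so the positions do not check the deletion.

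H2A.Z replaces H2A in nucleosomes that flank active promoters. It is put there by the SRCAP and TIP60-p400 complexes, ATP-dependent remodelers that exchange an H2A-H2B dimer for an H2A.Z-H2B dimer, and ANP32E is a chaperone that removes it. PWWP2A binds H2A.Z nucleosomes and PWWP2A/B join a histone deacetylase complex, and the comparison asks whether the genes of the H2A.Z pathway start at the same bases in cells without both proteins.

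The sequences at the widest promoter cluster of each gene are shown first, since the width and the dominant TSS of these clusters are what the lines can be compared on. Each runs 5′ to 3′ on the gene's strand (mm10) with the interquantile region of E14 in capitals, which is the stretch from quantile 0.1 to quantile 0.9 of the cluster's signal. The bases came from RefSeq promoter sequences (GRCm38.p6) and GENCODE vM21 transcripts. The window of Vps72 starts at the annotated gene start, because only the transcript covered it.
H2afz, chr3:137864529-137864629, plus strand: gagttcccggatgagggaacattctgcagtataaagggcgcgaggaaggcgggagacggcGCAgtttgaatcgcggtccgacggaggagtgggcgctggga
H2afv, chr11:6444354-6444454, minus strand: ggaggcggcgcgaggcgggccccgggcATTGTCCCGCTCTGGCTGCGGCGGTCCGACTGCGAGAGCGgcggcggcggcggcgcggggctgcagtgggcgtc
Anp32e, chr3:95929278-95929378, plus strand: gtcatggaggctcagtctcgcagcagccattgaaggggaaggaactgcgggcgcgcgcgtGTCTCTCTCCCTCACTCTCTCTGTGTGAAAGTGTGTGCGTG
Srcap, chr7:127511970-127512070, plus strand: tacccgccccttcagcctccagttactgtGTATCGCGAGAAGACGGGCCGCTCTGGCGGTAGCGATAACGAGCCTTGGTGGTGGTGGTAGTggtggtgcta
Vps72, chr3:95111022-95111082, plus strand: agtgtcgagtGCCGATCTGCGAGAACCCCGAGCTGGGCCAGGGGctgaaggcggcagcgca
Znhit1, chr5:136987478-136987578, minus strand: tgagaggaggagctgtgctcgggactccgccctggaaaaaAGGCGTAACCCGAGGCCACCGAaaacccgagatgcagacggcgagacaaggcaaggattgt
Yeats4, chr10:117224451-117224551, minus strand: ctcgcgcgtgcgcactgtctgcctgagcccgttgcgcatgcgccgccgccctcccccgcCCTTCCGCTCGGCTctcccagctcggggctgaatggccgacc
Ep400, chr5:110770545-110770645, minus strand: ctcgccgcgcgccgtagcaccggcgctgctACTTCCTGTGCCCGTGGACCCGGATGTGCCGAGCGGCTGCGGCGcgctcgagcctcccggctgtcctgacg
Ruvbl1, chr6:88465382-88465482, plus strand: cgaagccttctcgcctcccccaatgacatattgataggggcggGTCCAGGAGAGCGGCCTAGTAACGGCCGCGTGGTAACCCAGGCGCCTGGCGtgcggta
Ruvbl2, chr7:45434252-45434343, minus strand: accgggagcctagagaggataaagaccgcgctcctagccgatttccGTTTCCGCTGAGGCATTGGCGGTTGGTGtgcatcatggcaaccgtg
The H2afz window holds the shortest run of capitals of the 10 and the Srcap window the longest. The Anp32e region runs on past the end of its window, to base 95929400.

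The second set of sequences is the exonic starts, which lie inside coding sequence and have no annotated start within 500 bp on their strand. The base of the dominant TSS in E14 is in capitals, and for the single cluster that E14 lacked, the base in the DKO clones. The site of Anp32e in its 3′ UTR is not printed.
Anp32e exon 2, chr3:95933993-95934033, plus strand: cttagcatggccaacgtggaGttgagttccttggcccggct
Anp32e exon 3, chr3:95934787-95934827, plus strand: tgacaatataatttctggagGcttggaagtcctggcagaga
Anp32e exon 4, first, chr3:95937131-95937171, plus strand: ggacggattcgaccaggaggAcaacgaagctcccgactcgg
Anp32e exon 4, second, chr3:95937155-95937195, plus strand: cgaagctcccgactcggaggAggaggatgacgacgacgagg
Anp32e exon 5, first, chr3:95937889-95937929, plus strand: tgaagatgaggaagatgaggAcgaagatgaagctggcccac
Anp32e exon 5, second, chr3:95937946-95937986, plus strand: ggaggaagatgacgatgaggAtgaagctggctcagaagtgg
Srcap exon 25, chr7:127541290-127541330, plus strand: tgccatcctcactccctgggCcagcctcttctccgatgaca
Ep400 exon 7, chr5:110729857-110729897, minus strand: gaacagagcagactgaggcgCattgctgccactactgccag
Ep400 exon 45, both DKO clones but not E14, chr5:110673264-110673293, minus strand: ccacaggggTtcagctacctggaaaaacca
Ep400 exon 45, all lines, chr5:110673159-110673199, minus strand: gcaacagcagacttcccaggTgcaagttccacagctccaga
Ruvbl2 exon 6, chr7:45429922-45429962, minus strand: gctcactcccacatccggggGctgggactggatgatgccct
A guanine stands directly before the capital in all of these except the first, where it is an adenine.

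Nearly all clusters of the 10 genes were found at the same places in all lines. A cluster was called a promoter cluster where an annotated transcript began on its strand no more than 500 bp from its dominant TSS, and otherwise took the name of the exon, intron or intergenic stretch it fell in. In E14, 28 of the 39 clusters were promoter clusters (71.8%, against 60.48% of all clusters). The other 11 were exonic (28.2%, against 12.97%). In A1 the numbers were 27 and 12 of 39, against 60.22 and 13.06% of all clusters. In C7 they were 28 and 12 of 40, against 60.47 and 13.15%. None of the 10 genes had an intronic cluster in any line, where 3045 of all 32857 E14 clusters were intronic. All clusters also hold intergenic ones (5680 in E14), which the rule for the genes does not reach. At least 2 promoter clusters were found in 6 of the 10 genes in every line, against 38.4, 38.5 and 38.6% of coding genes with a promoter cluster. Of the 39 clusters of E14, 38 overlapped a cluster in both DKO clones, against 98.8% of all E14 clusters. None was in E14 alone, where 76 of all 32857 E14 clusters were. The 2 clones shared 1 cluster that E14 lacked, in Ep400, where the share over all A1 clusters was 0.448%. A single cluster, in H2afz, was absent from A1 (0.709% of all E14 clusters), and none was absent from C7 (0.749%). All 38 clusters paired with A1 and all 39 paired with C7 had the same first and last base as in E14 (99.1% and 99.4% of all pairs). The dominant TSS was another base in 23.8% and 21.1% of all pairs. Whether the edges were set for the lines together at calling was not tested. Shared places and edges therefore cannot be read as a measure of how alike the lines are.

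**Figure D1:**
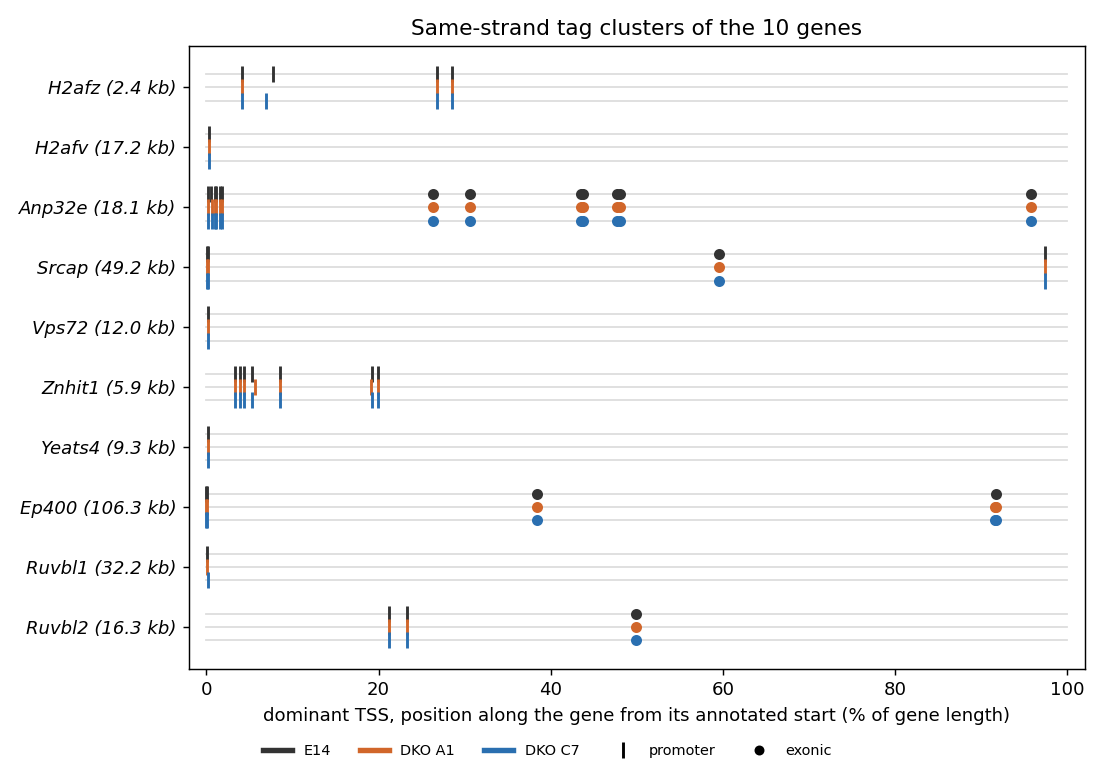
Positions of the dominant TSSs along each gene (x axis, percent of gene length from the annotated start), with 1 row per line for E14, DKO A1 and DKO C7. Vertical ticks are promoter clusters and dots are exonic clusters. The dots lie in Anp32e, Srcap, Ep400 and Ruvbl2. At this scale the added Ep400 dot of the DKO clones cannot be told apart from the exon 45 dot that all lines share.

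H2afz and H2afv, the genes of the 2 forms of H2A.Z, had promoters of different shape. H2afz (chr3:137864487-137866922, plus strand) had 4 promoter clusters in E14, 3 in A1 and 4 in C7. Its widest cluster spanned 138 bp in every line, from the annotated gene start onwards, but its interquantile width was 3 bp in E14, 3 bp in A1 and 3 bp in C7. The dominant TSS lay at position 103 of the gene (base 137864589, counting the gene's first base as 1) in all lines. Over coding genes with a promoter cluster, 4.67, 4.36 and 4.33% had a region of 3 bp or less at their widest promoter cluster in E14, A1 and C7. Among those whose cluster spanned over 50 bp, 0.858, 0.688 and 0.687% did. The stretch between the quantiles thus took up 3 neighbouring bases of a long cluster.

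In the printed H2afz window, a TATAA lies with its first base 31 bases before the dominant TSS. TATA boxes are bound by TATA-binding protein and fix the start a short distance downstream in many genes. The motif was searched as TATAA on the gene's strand, with its first base 35 to 25 bases before the dominant TSS. It was found at 1 of the 9 widest promoters of these genes whose bases were known, and at 2.38% of 16326 promoter clusters of E14. Among E14 promoter clusters over 50 bp wide, 29 of 58 with an interquantile width of at most 3 bp had it and 69 of 6089 wider ones did. This search was chosen after the H2afz sequence had been seen, and a match of letters is not a site of binding.

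The other H2afz clusters were small. The second, at chr3:137864655-137864675 in the first exon, had its dominant TSS at base 137864675 in E14 and 137864655 in C7, and was the one absent from A1. Over all promoter clusters of E14, 0.518% were absent from A1. The other 2 clusters, at positions 654 and 695, lay in the coding part of exon 2, at 12 and 53 bp from the annotated start of a retained-intron transcript, which is why they count as promoter clusters. The one at 654 was 2 bp wide with an interquantile width of 1, 2 and 1 bp in E14, A1 and C7. The one at 695 was 29 bp wide, with an interquantile width of 29 bp in E14 and 27 bp in both clones. It was the only cluster of the 10 genes that was narrower in both clones (1 of 38, against 3.99% of all clusters).

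H2afv (chr11:6427229-6444443, minus strand) had 1 cluster, of 108 bp, with its dominant TSS at base 6444394 in every line. Its interquantile width was 40 bp in E14, 56 bp in A1 and 47 bp in C7. Both clones thus had a wider region than E14, and A1 the widest. The change was at the downstream edge, since the upstream edge and the dominant TSS stayed at the same base. No TATAA lay in the window searched. The RefSeq promoter windows of the H2A.Z genes, 250 bases before to 50 after the RefSeq start, were both rich in CpG, with 34 CpG dinucleotides and 71.33% GC for H2afz and 27 and 60.67% for H2afv, where the median of all windows was 7 and 52.67%.

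**Figure D2:**
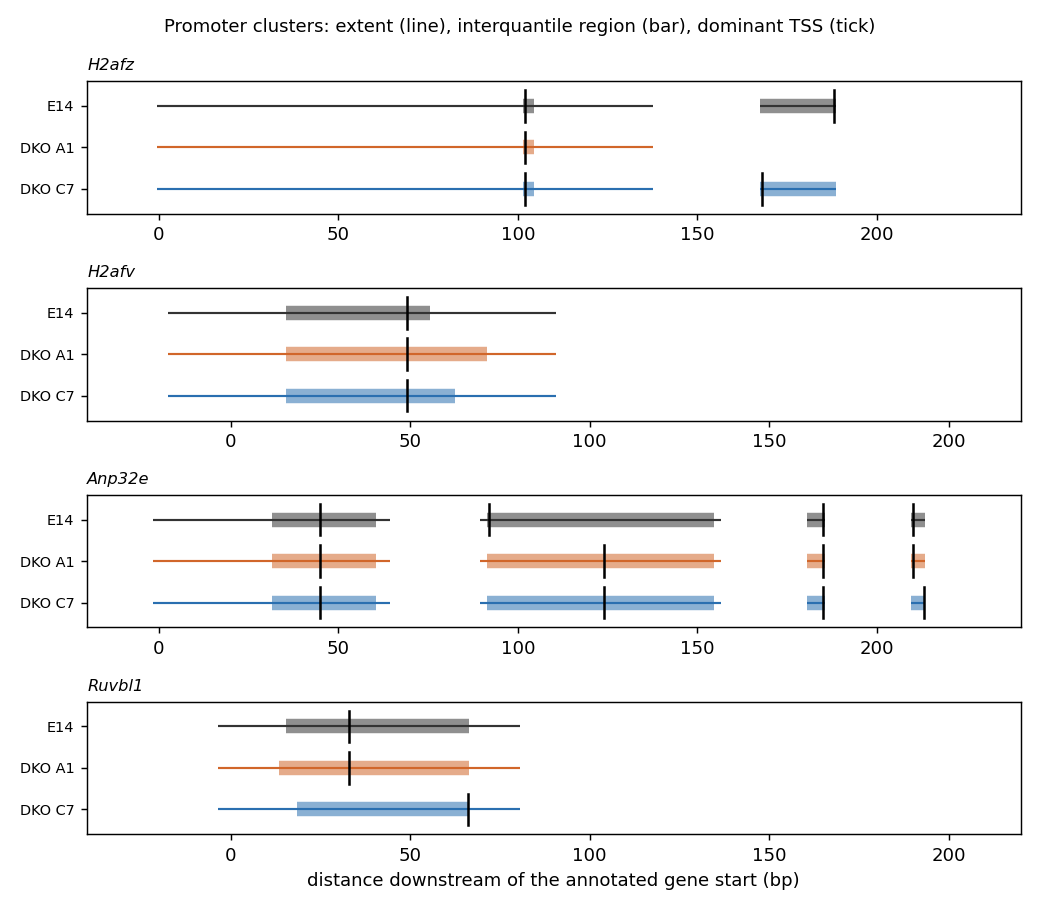
Promoter clusters of H2afz, H2afv, Anp32e and Ruvbl1 near the gene start in each line (x axis, distance downstream of the annotated gene start in bp). Thin lines are whole clusters, thick bars interquantile regions and black ticks dominant TSSs. The H2afz bar covers 3 bp of a 138 bp cluster in each line, the H2afv bar is longer in the clones, and the tick of the second Anp32e cluster is 32 bp further downstream in both clones.

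Anp32e (chr3:95929246-95947390, plus strand), the gene of the chaperone that takes H2A.Z off chromatin, had the most clusters of the 10 genes. It had 6 promoter clusters and 7 exonic clusters in each of E14, A1 and C7. At least 6 promoter clusters were found in 2.2% of coding genes and at least 7 exonic clusters in 1.03%, in E14. All 6 promoter clusters lay in the first exon, in its 5′ UTR, at positions 46, 93, 186, 211, 298 and 327. The widest was the second, 67 bp long with an interquantile width of 63 bp in all lines. Its dominant TSS was base 95929338 in E14 and base 95929370 in both clones, a shift of 32 bp downstream. The printed window holds a run of CT repeats within this region. The clusters at positions 211 and 327 had another dominant TSS in C7 alone, 3 and 11 bp downstream.

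The exonic clusters of Anp32e lay in exons 2, 3, 4, 4, 5 and 5 of 7 and in the 3′ UTR of exon 7. Positions in the gene were 4768, 5562, 7906, 7930, 8664, 8721 and 17378 in E14. All 7 were present in all 3 lines. Their interquantile widths in E14 were 2, 2, 2, 7, 22, 18 and 2 bp, so that the pair in exon 5 was the widest. Of the 41 bases centred on the 7 sites, 46.3, 58.5, 61, 68.3, 73.2, 75.6 and 29.3% were purines in this order, so that the exon 4 and 5 sites had the most and the 3′ UTR site the fewest. These purine shares have no share of all exonic clusters or of the whole exons beside them, so they cannot be read as a trait of the starts. In both clones the first exon 4 cluster was 3 bp in place of 2 bp. The 3′ UTR cluster had its dominant TSS 1 base downstream in A1 and at the same base in C7.

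SRCAP is the ATPase of the complex named after it, and YL1 (Vps72), ZNHIT1 and GAS41 (Yeats4) are its subunits: YL1 holds the H2A.Z-H2B dimer and GAS41 reads acetylated histone tails. Srcap (chr7:127511983-127561219, plus strand) had 3 promoter clusters and 1 exonic cluster in each line. The first spanned 91 bp with an interquantile width of 62, 63 and 64 bp in E14, A1 and C7 and a dominant TSS at position 48 in all of them. The second, 13 bp long, had an interquantile width of 2 bp in E14 and of 13 bp in both A1 and C7, around the same dominant TSS.

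The other Srcap clusters were far inside the gene. The exonic one lay in exon 25 of 34, a coding exon of 1466 bp, with its dominant TSS at base 127541310 in E14 and 127541309 in both clones. The third promoter cluster, at base 127559931, lay in the coding sequence of exon 34, the last one, at an offset of -154 bp from an annotated start of Gm42715, a coding gene model on the same strand that overlaps Srcap. Starts of Srcap and Gm42715 at these bases cannot be told apart.

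Vps72 (chr3:95111022-95123051, plus strand) had 1 cluster of 71 bp, with an interquantile width of 34 bp and a dominant TSS at position 21 in all lines. Yeats4 (chr10:117215221-117224507, minus strand) also had 1 cluster, of 34 bp, with an interquantile width of 14 bp and a dominant TSS at position 17. These 2 genes were the same in all 3 lines in each of these measures.

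Znhit1 (chr5:136982164-136988021, minus strand) had 7 promoter clusters in each line, and 1.36% of coding genes had at least 7 in E14. They lay at positions 198, 232, 259, 315, 504, 1126 and 1172 in E14, all in 5′ UTR exons of its transcripts. The widest, the fifth, spanned 60 bp and had an interquantile width of 22 bp in E14, 22 bp in A1 and 23 bp in C7. In A1 alone the dominant TSS of the cluster at position 315 moved 16 bp and that of the cluster at position 1126 moved 5 bp. Plod3, which encodes a collagen-modifying lysyl hydroxylase, starts on the other strand of the same interval, and 5 of its promoter clusters lay inside Znhit1 in each line.

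Ep400 encodes p400, the ATPase of the TIP60-p400 complex. The gene (chr5:110664373-110770717, minus strand) had 2 promoter clusters in every line, 4 and 75 bp long. The wider one had an interquantile width of 44 bp in E14 and 47 bp in both clones, with its dominant TSS at position 133 throughout. Exonic clusters lay in exon 7 of 51 (bases 110729877 to 110729878) and exon 45 of 51 (bases 110673178 to 110673179) in all 3 lines. A1 and C7 each had another in exon 45, a single base at 110673284, that was not called in E14. It stood at base 10 of this exon of 185 bp, behind the printed run of 4 g, at position 97434 of the gene. Of the exonic clusters of A1, 0.928% (40 of 4311) were shared with C7 and absent from E14, and 39 of 11168 coding genes (0.349%) had such a cluster. No error can be given for a call on a single base without a count behind it, and the E14 signal at that base was not examined.

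RUVBL1 and RUVBL2 are the AAA+ ATPases that form a ring shared by the SRCAP, TIP60-p400 and INO80 complexes. Ruvbl1 (chr6:88465409-88497572, plus strand) had 1 cluster, of 84 bp. Its dominant TSS was base 88465442 in E14 and A1 and base 88465475 in C7, 33 bp downstream. Its interquantile width was 51 bp in E14, 53 bp in A1 and 48 bp in C7, so that A1 was above E14 and C7 below it. Its RefSeq promoter window had 45.67% GC and 11 CpG, the lowest GC of the 10 windows found for these genes (9 genes matched, and Znhit1 gave 2). It was the only one of the 10 that held TATAA on either strand, which 24.9% of all windows did, and it also held TATAAA (13.6%). The H2afz window ends before the TATAA printed above. CCAAT, the letters that NF-Y binds, was in 6 of the 10 windows and GGGCGG, the GC box of SP1, in 7, against 37.4% and 35.7% of all windows. The searches used both strands.

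Ruvbl2 (chr7:45421760-45438096, minus strand) had no cluster at its annotated gene start. Its promoter clusters lay at positions 3460 and 3814, near the starts of other annotated transcripts, and were 44 and 45 bp long. The first had an interquantile width of 38 bp in E14, 40 bp in A1 and 34 bp in C7. The second kept 28 bp in every line. The exonic cluster, in exon 6 of 18, had its dominant TSS at base 45429942 in E14 and 45429941 in both clones. Gys1, the gene of muscle glycogen synthase, starts on the other strand.

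**Figure D3:**
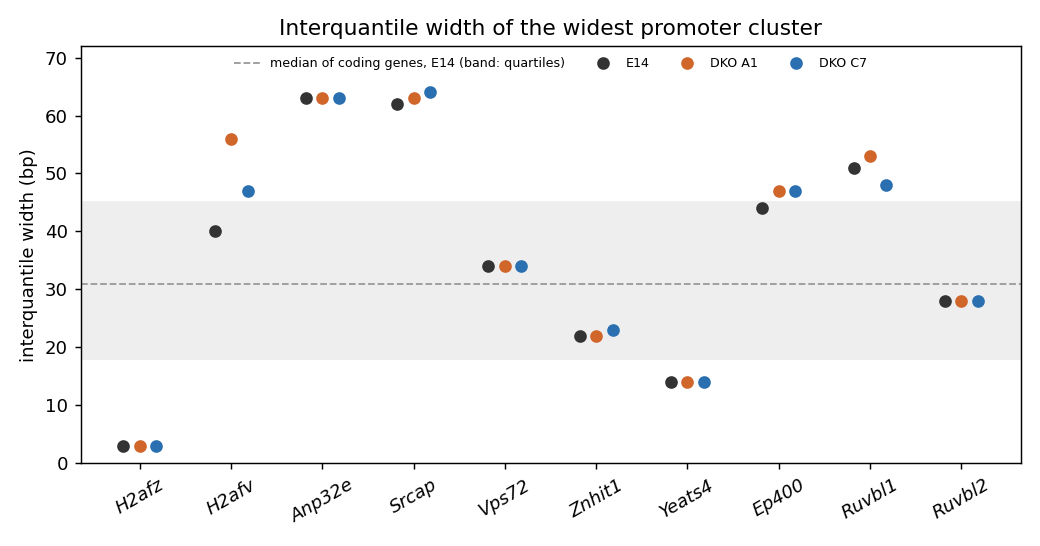
Interquantile width in bp (y axis) of the widest promoter cluster of each gene (x axis) in E14, DKO A1 and DKO C7, 1 point per line. The dashed line is the median of coding genes in E14, 31 bp, and the band runs between the quartiles, 18 and 45 bp. H2afz lies lowest, at 3 bp, and Anp32e and Srcap lie highest, at 62 to 64 bp.

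The widest promoter cluster of the 10 genes had an interquantile width of 3 to 63 bp in E14, and the median of 11168 coding genes was 31 bp (quartiles 18 and 45 bp). In E14, Anp32e, Srcap and Ruvbl1 were over 50 bp, as were 17.9% of coding genes. In A1 these 3 and H2afv were over 50 bp (19.3% of coding genes), and in C7 Anp32e and Srcap were (19.4%). H2afz and Yeats4 were below the lower quartile in every line. H2afv was the gene with the largest change between lines. Over all promoter clusters of the 10 genes, the median interquantile width was 18.5, 18 and 18.5 bp in E14, A1 and C7, against 20, 21 and 21 bp for all promoter clusters. Over their exonic clusters it was 2 bp in each line, against 3 bp for all clusters in exons and introns.

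The share of clusters of the 10 genes that differed from E14 is given beside that of all clusters. The dominant TSS was another base than in E14 in 6 of 38 clusters in A1 (15.8%, background 23.8%) and in 7 of 39 in C7 (17.9%, background 21.1%). It moved by more than 10 bp in 2 clusters in A1 (5.26%, background 7.5%) and in 4 in C7 (10.3%, background 6.8%), below the background in A1 and above it in C7. In 3 of 38 clusters it moved to the same new base in both clones (7.89%, background 8.47%): the second promoter cluster of Anp32e, by 32 bp, and the exonic clusters of Srcap and Ruvbl2, by 1 bp each. The interquantile region was wider in 8 of 38 clusters in A1 (21.1%, background 20.3%) and in 6 of 39 in C7 (15.4%, background 18.5%). It was narrower in 1 of 38 in A1 (2.63%, background 10.5%) and in 3 of 39 in C7 (7.69%, background 10.6%). It was wider in both clones in 5 of 38 clusters (13.2%, background 12.5%). These were the H2afv promoter, the first and second promoter clusters of Srcap, the wider promoter of Ep400 and the first exon 4 cluster of Anp32e. These counts come from few clusters and were not tested, so they are not a result about the 10 genes, and E14 is common to both contrasts.

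Exonic starts were found in 4 of the 10 genes (Anp32e, Srcap, Ep400 and Ruvbl2) in every line. Over coding genes with a promoter cluster, 13.3, 13.4 and 13.4% had an exonic cluster in E14, A1 and C7, and 21.1, 21.2 and 21.2% had an exonic or intronic one. The paper reports that most spurious sites lie in highly expressed genes. These positions carry no expression level, so the coding genes were not matched for it, and the difference was not tested. The 10 genes no longer stood above coding genes when clusters with an interquantile region under 3 bp were left out. Then 3, 4 and 4 exonic clusters were left, 1 of the 10 genes had an exonic or intronic cluster in each line, and 13.48, 13.74 and 13.65% of coding genes did. With a promoter window of 100 bp instead, 5 of the 10 genes had one in each line, against 28.54, 28.65 and 28.6% of coding genes. With starts of protein-coding transcripts only, the exonic clusters of the 10 genes numbered 14, 15 and 15. Anp32e held 7 of the 11 exonic clusters of E14, so that this gene decides what the exonic clusters look like as a group. Of the 11, 10 lay in coding sequence, against 65% of all exonic clusters. Their exons had a median length of 158 bp and the start a median position of base 87 in the exon, where the medians over all exonic clusters were 841 and 225. The median over the 11 is that of few genes, and it was not tested.

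The bases at the start differed between promoter and exonic clusters. A pyrimidine followed by a purine at the TSS, the step that RNA polymerase II commonly starts on, was found at 19 of 28 promoter clusters in E14, 21 of 27 in A1 and 20 of 28 in C7. Over all promoter clusters with known bases the shares were 74.4, 73.3 and 74%. No exonic cluster of the 10 genes had this step, with 0 of 11 in E14, 0 of 12 in A1 and 0 of 12 in C7, where the shares over all exonic clusters were 10.5, 10.4 and 10.4%. A guanine stood just before the dominant TSS in 10 of 11, 10 of 12 and 11 of 12 exonic clusters, against 71.8, 70.6 and 71.2% of all. At promoter clusters it did so in 7 of 28, 5 of 27 and 6 of 28, against 14.1, 14.4 and 14.5%. The promoter class takes in the H2afz clusters at positions 654 and 695 and the third of Srcap, all inside coding sequence. Each had a guanine before the E14 dominant TSS and lacked the step. A run of at least 2 guanines preceded 8 of 11, 8 of 12 and 9 of 12 exonic starts, against 63.5, 62.3 and 63.4% of all. The guanine was looked for after the printed sequences had been seen. The same contrast between promoters and exons was seen over all clusters.

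**Figure D4:**
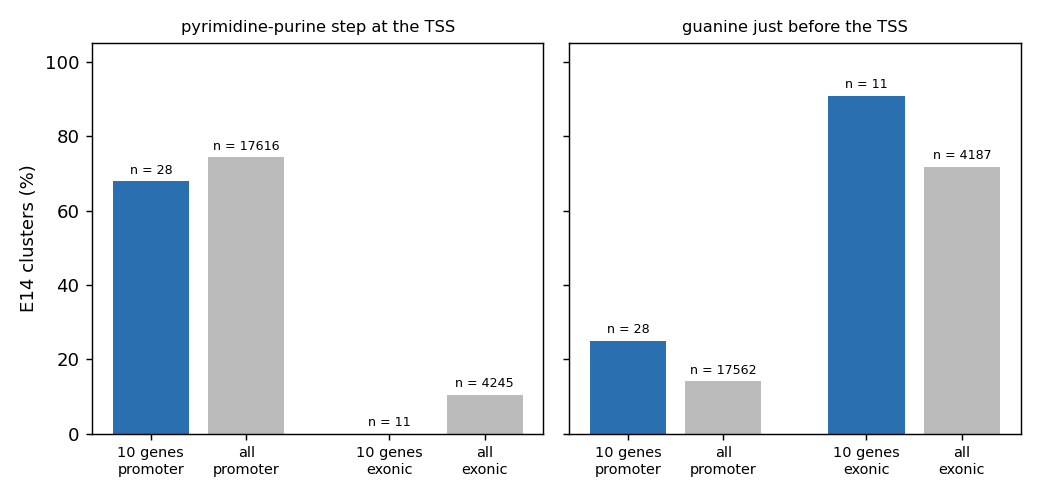
Share of E14 clusters (y axis, percent, from 0) with a pyrimidine-purine step at the dominant TSS (left) and with a guanine just before it (right). Bars are clusters of the 10 genes (blue) and all clusters (grey), split into promoter and exonic, with the number of clusters above each. The step is at 0 for the 11 exonic clusters of the 10 genes, and the guanine is more common at exonic than at promoter clusters in both sets.

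Transcription in the other direction was found near 5 of the 10 promoters. An opposite-strand cluster had its dominant TSS within 1000 bp upstream of that of the widest promoter cluster in Anp32e, Znhit1, Yeats4, Ruvbl1 and Ruvbl2, in every line, and in 23.8, 23.8 and 23.9% of coding genes. For Znhit1 it was the start of Plod3, 85 bp away in E14, 76 bp in A1 and 77 bp in C7. For Yeats4 it was at an annotated start of Gm48772, 52, 41 and 52 bp away. For Ruvbl2 it was the start of Gys1, 600, 578 and 578 bp away. Those of Anp32e (303, 335 and 335 bp) and Ruvbl1 (171, 171 and 204 bp) had no annotated start. The opposite cluster itself stayed at the same dominant TSS in Anp32e and Ruvbl1, and the distance changed with the gene's own dominant TSS.

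Other genes of the same pathway were counted over a list of 31 that held further subunits of the SRCAP, TIP60-p400 and INO80 complexes, H2A.Z-binding proteins, Pwwp2a and Pwwp2b, and the histone deacetylases Hdac1 and Hdac2, which join PWWP2A/B. A promoter cluster was found for 30 of the 31 in each line, all but Pwwp2b, and for 50.9, 50.9 and 50.8% of all annotated coding genes in E14, A1 and C7. Of these 30, 10 had an exonic or intronic cluster (33.3%) and 7 an exonic one (23.3%) in each line. Over coding genes with a promoter cluster, not matched for expression, the shares were 21.1 to 21.2% and 13.3 to 13.4%, and the difference was not tested. Actb, the gene of the actin that is also a subunit of these complexes, had 3 exonic clusters. Ino80, the ATPase of INO80, had 1 exonic and 1 intronic cluster and Mbtd1, a TIP60 subunit, had 2 intronic ones. Of the 7 genes tied at 1 such cluster, the first by name are given. Brd2, a bromodomain protein that binds H2A.Z nucleosomes, had 1 exonic cluster and Epc2, a TIP60 subunit, 1 intronic one. None of the 31 had a cluster that A1 and C7 shared and E14 lacked, or one of E14 alone (an exonic cluster of the first kind was in 0.349% of coding genes). The gained site of Ep400 was the only such cluster among the 10 genes and these 31.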

How the data were processed

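CAGE-seq was performed by the authors on nuclear RNA of 8 libraries (E14 3, A1 2, C7 3). Reads were mapped to mm10 with STAR 2.4.2a keeping unique matches, and replicates were merged and clustered with CAGEr. The authors deposited tag clusters of the 3 merged sets as positions (start, end, dominant TSS and the blocks of quantiles 0.1 to 0.9). The score column deposited with them is 0 throughout, so the file carries no read counts or expression. Library read totals and signal tracks were not used here. Groups followed the labels. Clusters were read with Python 3.11.15 and NumPy 2.4.6. The dominant TSS decided the class of a cluster, the promoter window was 500 bp, and clusters of different lines were paired where they overlapped by 1 bp or more on 1 strand. The interquantile width was the length of the longest drawn block. The parser and the classes were tested on simulated clusters. No test was made, with 1 set per line. The precision of single clusters could not be given, since no counts stand behind them here. Bases came from RefSeq promoters and GENCODE vM21 transcripts, which were identical at 248333 of 248333 shared bases. The genes and lists were chosen with earlier results of these data known. All 10 genes, Pwwp2a and Pwwp2b, overlapping or facing genes and the 5 pathway genes with most exonic and intronic clusters (ties by name) were named. Alternatives covered the promoter window, the transcripts used, the overlap rule, a minimum width and each clone alone.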

Additional observations from a re-analysis of the deposited data

How the results depend on the processing

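Where 3 values are given, the order is E14, A1, C7. Under the alternatives, 109 values were labelled the same as those reported and 30 as moved, but the first label also took in sizeable changes. Narrowing the promoter window to 100 bp raised the exonic clusters of the 10 genes from 11, 12 and 12 to 16, 17 and 17. Their promoter clusters fell from 28, 27 and 28 to 23, 22 and 23. Starts of protein-coding transcripts alone left 14, 15 and 15 exonic clusters. The exonic count thus depended on the window and on the transcripts used. Leaving out clusters with interquantile regions under 3 bp gave 3, 4 and 4 exonic clusters, 25 clusters in all lines and 2 in both DKO clones only, 3 with another dominant TSS in A1, and 1, 1 and 1 of the 10 genes with an exonic or intronic cluster, where the share of coding genes was 13.48, 13.74 and 13.65%. The Ep400 site is 1 bp wide and drops out, and the 2 are clusters under 3 bp in E14. Intragenic medians became 18, 12.5 and 12.5 bp by construction. With clone A1 alone, 1 cluster was in E14 only, that of H2afz. Shifts of the dominant TSS by more than 5 bp, or by more than 10 bp, numbered 2 and 2 in A1 and 4 and 4 in C7. The median whole width of promoter clusters of the 10 genes was 25, 29 and 25 bp, with 1 H2afz cluster absent from A1. Coding genes with an exonic or intronic cluster were 28.54, 28.65 and 28.6% with a promoter window of 100 bp and 19.28, 19.37 and 19.31% with 1000 bp. Counting CA alone as the start step gave 6, 7 and 6. No paired analysis was possible because the replicates had been merged in each line, and for the same reason no replicate could be left out. The search for guanine and for TATAA was added after seeing the data.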

Other observations

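Anp32e had 4 clusters on the opposite strand inside the gene in each line, none at an annotated start. In E14 their dominant TSSs were opposite positions 4690, 4804, 7784 and 15100 of the gene. The first and second lie on either side of the sense start in exon 2, at position 4768, and the third lies upstream of the exon 4 starts. In A1 the fourth was opposite position 15103, and in C7 the first was opposite position 4676. Inside Srcap, an opposite cluster lay at position 877 in E14 and 874 in both clones, at an annotated start of 1700008J07Rik. Ruvbl2 held, besides the Gys1 promoter, an opposite cluster at position 85 in each line, in an intron of Gys1.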
